A study of Mus musculus with 2 samples.

Results

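The 38 genes described here are a set of stress and stimulus response genes: 30 immediate-early genes and 8 heat-shock genes. They were matched by gene symbol in the feature lists of both count matrices, and all 38 were found among the 32285 genes listed. They were read in 2 single-cell RNA-seq libraries from prostates of wild-type male mice of the strain C57BL6, with no treatment named in the labels. One library was made from the ventral lobes with version 2 of the 10x reagents, the other from the proximal and periurethral region with version 3, and each is the only library of its region. Prostate region and reagent version therefore cannot be told apart wherever the libraries are compared, there is no replicate check, and no p-value is given. The age of the mice and how many were pooled are not given in the sources used here. Both tissues were dissociated with papain at 37 °C, in steps of 45 minutes, followed by TrypLE for 4 minutes. RNA made during that time cannot be told apart from RNA present in the intact gland, because no sample without dissociation was analysed here.

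Immediate-early genes are transcribed within minutes of a stimulus, without need of new protein, mostly through factors that already sit in the cell: serum response factor at CArG boxes, CREB at cyclic AMP response elements and NF-kappaB. Many of their products are transcription factors, among them the FOS and JUN proteins that pair to form the AP-1 factor, and others switch the response off again. Heat-shock genes encode chaperones that keep proteins folded, and heat-shock factor 1 drives them through heat-shock elements in their promoters. In single-cell work both groups are known to respond to tissue dissociation as well as to stimuli in the animal.

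The promoters of the members carry those elements to different extents, and the sequences below show the ones whose genes are followed through the results. RefSeq promoters (build GRCm38.p6) were at hand for 30 of the 38 members, and the 250 bases before the transcription start were searched on both strands. Those of Fosl1, Egr1, Egr3, Ier2, Klf10, Myc, Hsp90aa1 and Hspa8 were not at hand and were not searched. A heat-shock element was defined by the letters GAANNTTC or TTCNNGAA. A gene was counted where any of its promoters matched. The element was found in 5 of the 6 heat-shock members in the table (Hspa1a, Hspa1b, Dnaja1, Hspb1 and Hsph1, but not Dnajb1). It was also found in 3 of the 24 immediate-early members (Fosl2, Jun and Egr2). Of all 27025 genes with promoters, 14.5% held it. The cyclic AMP response element TGACGTCA was found in Dusp1 and Btg2 alone among the 30 members searched, against 1.77% of all genes. The CArG box was found in Egr2 and Zfp36, against 1.62%. The AP-1 site, TGACTCA or TGAGTCA, was found in 0 of the 30 members, against 5.16% of all genes. These matches describe letters in a window and no binding. The Hspa1a and Hspa1b genes are neighbouring copies whose upstream sequences differ at few bases, and their 250 bases before the start are shown whole, from chr17:34972157-34972406 and chr17:34959239-34959488 on the minus strand. For the others 60 bases around the match are shown: Hspb1 from chr5:135887776-135887835 (plus strand), Egr2 from chr10:67537468-67537527 (plus), Btg2 from chr1:134079288-134079347 (minus) and Dusp1 from chr17:26508582-26508641 (minus). All are written 5′ to 3′ in the direction of the gene, and capitals mark the heat-shock element in the Hspa1a, Hspa1b and Hspb1 promoters, the CArG box in Egr2 and the cyclic AMP response element in Btg2 and Dusp1.
Hspa1a: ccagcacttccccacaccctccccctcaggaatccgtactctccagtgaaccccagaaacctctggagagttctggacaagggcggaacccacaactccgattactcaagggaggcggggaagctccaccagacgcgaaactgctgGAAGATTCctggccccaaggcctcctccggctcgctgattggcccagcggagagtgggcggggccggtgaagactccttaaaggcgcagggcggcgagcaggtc
Hspa1b: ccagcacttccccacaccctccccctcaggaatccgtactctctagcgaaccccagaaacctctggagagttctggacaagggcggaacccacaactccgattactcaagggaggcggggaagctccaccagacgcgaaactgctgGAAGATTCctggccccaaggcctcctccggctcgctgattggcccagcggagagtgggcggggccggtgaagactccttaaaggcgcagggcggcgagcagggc
Hspb1: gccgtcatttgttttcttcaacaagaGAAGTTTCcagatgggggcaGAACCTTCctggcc
Egr2: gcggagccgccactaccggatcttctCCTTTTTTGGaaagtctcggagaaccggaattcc
Btg2: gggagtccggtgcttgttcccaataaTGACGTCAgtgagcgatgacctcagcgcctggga
Dusp1: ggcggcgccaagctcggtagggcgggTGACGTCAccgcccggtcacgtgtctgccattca

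The element GAAGATTC stood 104 to 97 bases before the start in both Hspa1a and Hspa1b. Of the 250 upstream bases of this pair, 247 (98.8%) were identical. The Hspb1 promoter held 2 elements, at 117 to 110 and 97 to 90 bases before its start.

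The ventral matrix held 2221 barcodes and 49356586 UMIs (unique molecular identifiers, which tag captured RNA molecules), the proximal matrix 4344 barcodes and 97817603 UMIs, and the libraries shared 0 barcodes. After filtering, 1988 ventral cells (median 25758.5 UMIs) and 3705 proximal cells (median 15260 UMIs) were clustered without the response genes, and the clusters were named from marker genes, so every cell name carries "-like". The doublet caller marked 0.193% of cells, too few to be credited, so doublets are taken to remain. Distal luminal-like cells, the secretory cells of the lobes, made up 1747 of the ventral cells. Their secretory transcripts (Sbp, Spink1, Msmb and similar genes) took 46.7% of their UMIs, and transcripts of Sbp and Spink1 also made up 36.6% of UMIs in ventral T or NK-like cells and 11.9% in ventral macrophage-like cells. Over 5% of UMIs came from these 2 genes in 16 of the 27 T or NK-like cells but in 1 of the 29 macrophage-like cells, whose median was 1.38%. Sbp and Spink1 are not genes of immune cells, and the part of such RNA in the member values of these 2 groups was not tested. Shares below are percentages of all UMIs summed over a group of cells, levels are in CPM, a gene's UMIs scaled in the usual way by those summed UMIs, and brackets give 95% exact intervals that cover counting error only.

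Secretory cells of the ventral lobes carried the smallest share of response RNA among the large groups. Immediate-early members took 0.491% (0.489 to 0.493) of UMIs in ventral distal luminal-like cells, against 1.70% (1.67 to 1.73) in the 142 ventral basal-like cells, the progenitor-bearing layer beneath the secretory cells. Heat-shock members took 0.353% (0.351 to 0.355) and 1.07% (1.04 to 1.09). Single cells of the groups overlapped: the middle 80% of distal luminal-like cells lay between 0.151% and 0.861% immediate-early UMIs around a median of 0.442%, and those of basal-like cells between 0.398% and 3.36% around 1.33%. Immediate-early UMIs were absent from 3 of the 1747 distal luminal-like cells. The 43 ventral proximal luminal-like cells, the luminal cells of the ducts near the urethra, had 2.24% immediate-early and 1.02% heat-shock UMIs.

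In the proximal library the distal luminal-like class, which mixes 3 secretory states described below, stood closer to the other epithelial classes. Its 706 cells held 1.42% immediate-early UMIs (1.42 to 1.43) and 0.834% heat-shock UMIs, against 1.80% and 1.49% in 913 basal-like cells and 1.85% and 1.57% in 1372 proximal luminal-like cells. As in every proximal class, the immediate-early share was above the heat-shock share in stromal cells. The 515 fibroblast-like cells had 2.32% against 0.903%, the 61 endothelial-like cells 2.12% against 1.17%, and the 6 smooth muscle-like cells 2.54% against 1.04%. Basal markers summed to 5491 CPM in these 6 cells, near the 6656 of proximal basal-like cells, and the part of such RNA in their values was not tested. Immune and seminal vesicle-like cells had lower shares of all UMIs: 79 macrophage-like cells had 0.840% and 0.449%, 27 T or NK-like cells 1.10% and 0.753%, and 26 seminal vesicle-like cells, 41.7% of whose UMIs were secretory, 0.837% and 0.250%. Over all kept cells the immediate-early share was 0.529% in ventral lobes and 1.70% in the proximal library, and the heat-shock share 0.373% and 1.22%.

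Secretory RNA dilutes every other gene's share, so the same shares were taken over UMIs without 12 secretory genes and the mitochondrial genes. The ventral immediate-early share became 0.966% in distal luminal-like and 1.78% in basal-like cells, and the heat-shock share 0.695% and 1.11%. In the proximal library the immediate-early order turned round, with 1.96% in distal luminal-like and 1.88% in basal-like cells, while the heat-shock share was 1.15% and 1.56%. Seminal vesicle-like cells moved to 1.52% immediate-early, above the 1.15% of proximal T or NK-like cells, and to 0.455% heat-shock UMIs. The distal luminal-like over basal-like ratio of immediate-early share was thus 0.289 in the ventral library (0.544 without secretory and mitochondrial UMIs) and 0.791 in the proximal library (1.05 without them).

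**Figure D1:**
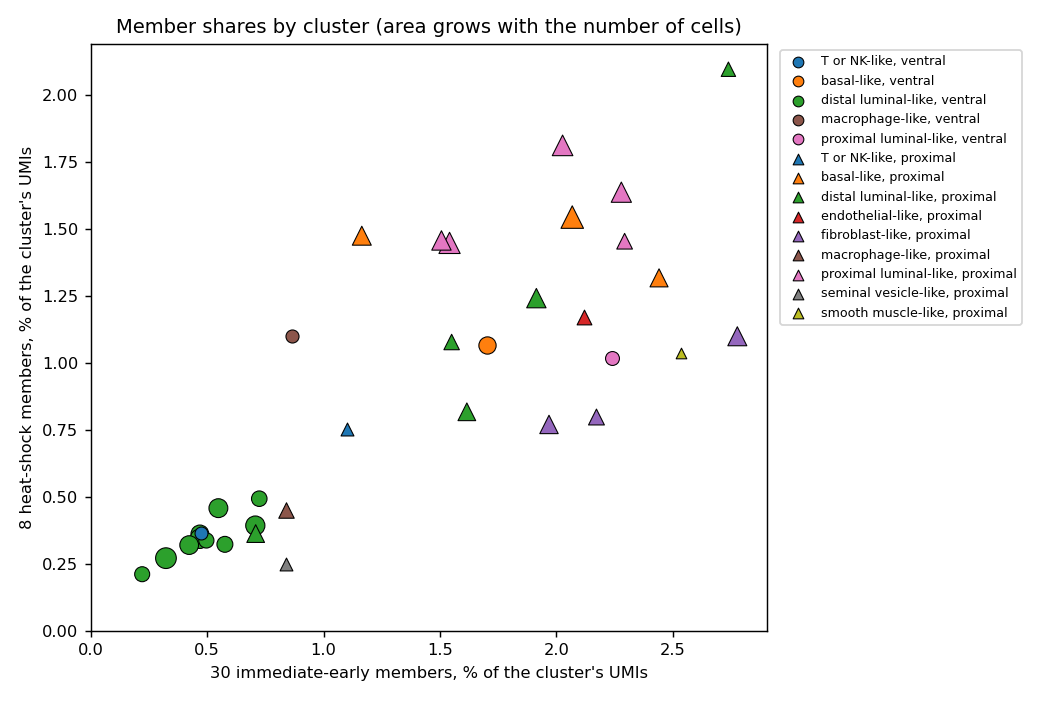
Share of UMIs from the 30 immediate-early members (x axis, %) against that from the 8 heat-shock members (y axis, %), 1 symbol per cluster, with circles for the ventral and triangles for the proximal library, coloured by named class and with area growing with the number of cells. The 10 ventral distal luminal-like clusters lie between 0.221% and 0.724% immediate-early UMIs, and the 5 proximal ones are spread from 0.708% to 2.74%.

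Clusters of 1 class differed widely. The 10 ventral distal luminal-like clusters ran from 0.221% to 0.724% immediate-early and from 0.211% to 0.493% heat-shock UMIs, and none of them reached the ventral basal-like values. The 5 proximal distal luminal-like clusters ran from 0.708% to 2.74% and from 0.363% to 2.10%, so that the lowest and the highest of them stood on either side of every proximal basal-like cluster (1.16% to 2.44% and 1.32% to 1.54%). The highest was a cluster of 53 cells with a median of 5592 UMIs, against 47822.5 over the class, among whose leading genes were Gm26917, Lars2, Gm42418 and the histone gene Hist1h4c. The part of this low depth in its shares was not tested. The lowest was the cluster of 162 Sbp- and Spink1-rich cells, the secretory state that fills the ventral lobes. The 161 Msmb- and Defb50-rich cells held 1.62% and 0.817%, and the 383 Tgm4- and Pbsn-rich cells 1.81% and 1.21%. Secretory genes took 52.4%, 19.8% and 4.16% of UMIs in these states, in that order, and without secretory and mitochondrial UMIs their immediate-early shares were 1.61%, 2.14% and 1.97%.

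Among the AP-1 genes, Fos or Jun was the highest in most groups. UMIs count captured molecules, so levels of different genes are set side by side without scaling by length. Fos, the stimulus-bound partner of the factor, stood at 499 CPM in ventral distal luminal-like cells, 2886 in ventral basal-like and 3655 in ventral proximal luminal-like cells, where it ranked 29th of all genes. In the proximal library its highest level was in fibroblast-like cells (2819), with 906 in basal-like and 847 in proximal luminal-like cells. Jun reached 4230 in proximal Tgm4- and Pbsn-rich secretory cells, its highest level in any group, against 618 in ventral distal luminal-like cells. Junb stood highest in the 6 smooth muscle-like cells (3686), followed by fibroblast-like (3278) and proximal T or NK-like cells (2687), and was at 346 in ventral distal luminal-like cells. Jund was highest in proximal luminal-like cells of the proximal library (2362) and lowest in ventral T or NK-like cells (349.8). Fosb ranged from 80.2 in ventral T or NK-like to 1477 in ventral proximal luminal-like cells. Sbp and Spink1 took 36.6% of UMIs in those T or NK-like cells, which dilutes the other genes there. The FOS-related Fosl1 and Fosl2 were low everywhere: Fosl1 reached 241 in proximal basal-like cells and Fosl2 302 in proximal T or NK-like cells.

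The other immediate-early transcription factors and response proteins peaked in different groups, several of them in ventral proximal luminal-like cells. Atf3, a stress-induced partner of JUN, was at 2239 in Tgm4- and Pbsn-rich cells, 2036 in proximal luminal-like cells of the proximal library and 514 in ventral distal luminal-like cells. Egr1, a zinc-finger factor downstream of serum response factor, ranged from 97.2 in ventral T or NK-like to 1650 in ventral proximal luminal-like cells. The T or NK-like value is diluted by the same secretory RNA. Egr2 stayed at or under 77.6, its level in Tgm4- and Pbsn-rich cells, and Egr3 at or under 53.2, in endothelial-like cells. Klf2, a flow-responsive factor of endothelium, was highest in endothelial-like cells (829) and lowest in proximal basal-like cells (42.4). Klf4, a factor of epithelial and stromal differentiation, was at 2121 in fibroblast-like and 1337 in proximal basal-like cells against 74.5 in ventral distal luminal-like cells. Klf6 was highest in ventral proximal luminal-like cells (1342). The orphan receptors Nr4a1 and Nr4a2 peaked in ventral proximal luminal-like (1090) and proximal T or NK-like cells (646). Myc, the growth regulator, was at 202 in proximal basal-like and 15.4 in ventral distal luminal-like cells. Ier2, Ier3 and Ier5, small immediate-early response proteins, split by cell type. Ier2 was highest in proximal Msmb- and Defb50-rich secretory cells (1648), Ier3 (694) and Ier5 (851) in proximal basal-like cells.

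Among genes whose products damp the response or hold back growth, Nfkbia, Socs3 and Dusp2 were low in secretory cells. Nfkbia, the inhibitor of NF-kappaB, was at 1130 in proximal basal-like and 1389 in endothelial-like cells, and at 125 and 140 in ventral and proximal distal luminal-like cells. Socs3, the inhibitor of cytokine receptor signalling, was at 246 in endothelial-like and 206 in fibroblast-like cells, 109 in ventral and 88.7 in proximal basal-like cells, and 2.52 and 5.16 in the distal luminal-like cells. Dusp2, a phosphatase of MAP kinases found mainly in immune cells, was at 237 in proximal T or NK-like cells and under 1 in the distal luminal-like cells of both libraries (0.171 and 0.762). Dusp1, the widely expressed phosphatase of that family, varied less, from 175 in seminal vesicle-like to 929 in fibroblast-like cells. The growth-arrest genes Gadd45b and Gadd45g were highest in smooth muscle-like cells, with 2223 and 925 over 6 cells, and Gadd45a in proximal basal-like cells (220). Zfp36, which speeds the decay of inflammatory messages, ranged from 85.0 to 543, and the antiproliferative Btg2 from 233 to 1188. Klf10, a factor induced by TGF-beta, reached 144 in ventral basal-like cells and 7.03 in proximal Sbp- and Spink1-rich cells.

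In every group the most abundant heat-shock member was the constitutive chaperone Hspa8, the small chaperone Hspb1 or Hsp90aa1, the inducible HSP90. Hspb1 was at 4670 in the 6 smooth muscle-like cells, 4167 in proximal basal-like, 4038 in proximal luminal-like and 4046 in ventral basal-like cells, and at 857 in fibroblast-like and 246 in macrophage-like cells of the proximal library. Hspa8 took 46.4% of heat-shock UMIs in proximal macrophage-like cells. Hsp90aa1 was at 875 in ventral distal luminal-like cells and up to 3034 in proximal luminal-like cells of the proximal library. The inducible HSP70 gene Hspa1a ranged from 216 in seminal vesicle-like to 2454 in ventral macrophage-like cells, and its co-chaperone Dnajb1 from 54.7 to 959. Dnaja1, another HSP70 co-chaperone, was at 1802 in proximal luminal-like cells of the proximal library and at 183 in ventral distal luminal-like cells. Hsph1, a nucleotide exchange factor for HSP70, peaked in Tgm4- and Pbsn-rich cells (440).

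**Figure D2:**
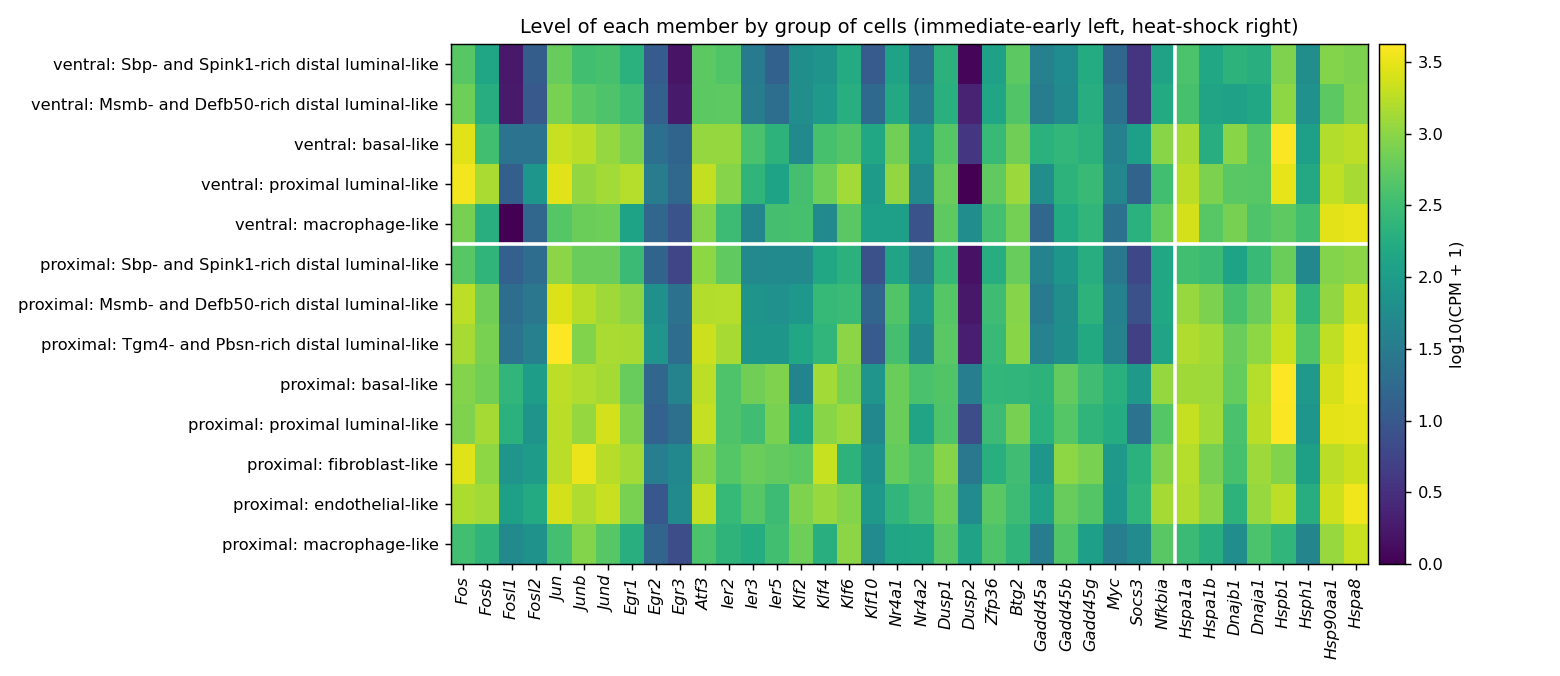
Level of each of the 38 members (columns, immediate-early left of the white line and heat-shock right of it) in 13 groups of cells (rows, ventral library above the white line and proximal below), as the log10 of CPM plus 1. The dark columns are Fosl1, Egr3, Dusp2 and Socs3, and the ventral Sbp- and Spink1-rich row is dark for Ier5 (12.5 CPM) where the basal-like rows are not (219 and 851).

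Secretory cells were then set against basal-like cells of the same library, which share tissue, dissociation and reagents. They differ in depth, with medians of 27106 and 4961 UMIs in the ventral and 47822.5 and 12025 in the proximal library. The part of this in the ratios of single genes was not tested. A gene counts as tested where it had at least 50 UMIs in either group, and as called where the levels differed over 2-fold, a rule of size and not a statistical test. In the ventral library 28 of the 35 members tested were called lower in distal luminal-like cells, as were 36.3% of all 11072 genes tested, and 0 were called higher, against 15.2% of all genes. The median log2 difference was -1.59 over the members and -0.61 over all genes. Without secretory and mitochondrial UMIs in the totals the medians were -0.67 and 0.31, and 14 members were lower and 1 higher, where 12.3% and 29.9% of all genes were. The 1 higher member, Klf2 (2.29-fold, 1.67 to 3.25), had 38 UMIs in basal-like cells and is not read as higher. Distal luminal markers summed to 22965 CPM in these basal-like cells against 467405 in the distal luminal-like cells, and 5 of the 142 cells held over 5% Sbp and Spink1 UMIs.

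The 5 largest differences were in Socs3, Ier5, Klf10, Ier3 and Nfkbia. Socs3 was at 2.52 CPM in ventral distal luminal-like and 109 in basal-like cells, 43.2-fold lower (ratio 0.0231, 0.0173 to 0.0311). Ier5 (12.9 against 219), Klf10 (10.3 against 144), Ier3 (29.3 against 383) and Nfkbia (125 against 946) had ratios of 0.0588, 0.0713, 0.0764 and 0.132. These 5 genes stayed over 2-fold lower without secretory and mitochondrial UMIs, with ratios from 0.0436 for Socs3 to 0.249 for Nfkbia. Fos was 5.79-fold lower (499 against 2886, ratio 0.173, 0.165 to 0.181) and Junb had a ratio of 0.191 (346 against 1807). Nr4a1 (123 against 717, 0.171), Gadd45a (0.178), Klf4 (0.202) and Gadd45b (0.227) followed.

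Jun (618 against 2111, 0.293), Egr1 (213 against 793, 0.269) and Jund (370 against 1112, 0.333) were called lower too. Nr4a2 (0.237), Klf6 (0.375), Ier2 (0.392), Myc (0.403), Fosb (0.413), Zfp36 (0.440), Dusp1 (0.442), Atf3 (514 against 1143, 0.449) and Fosl2 (0.453) complete the 23 immediate-early members called lower. Fosl2 and Myc had 17 and 28 basal-like UMIs, and their intervals (0.280 to 0.784 and 0.277 to 0.611) span the 2-fold limit, so neither is firmly past it. Of the heat-shock members, Hspb1 (839 against 4046, 0.207), Dnajb1 (217 against 959, 0.226), Hspa1a (401 against 1421, 0.282), Dnaja1 (0.398) and Hspa8 (807 against 1865, 0.433) were called lower. Of the 28, 14 lost the call without secretory and mitochondrial UMIs, with ratios from 0.507 for Egr1 to 0.854 for Fosl2: Jun, Jund, Fosb, Fosl2, Egr1, Atf3, Ier2, Klf6, Dusp1, Zfp36, Myc, Hspa1a, Dnaja1 and Hspa8. The 7 members not called had ratios of 0.503 (Egr2), 0.536 (Hsp90aa1), 0.561 (Hsph1), 0.734 (Btg2), 0.80 (Gadd45g), 0.826 (Hspa1b) and 1.22 (Klf2). Without secretory and mitochondrial UMIs those of Btg2 (1.38), Gadd45g (1.51) and Hspa1b (1.56) lay above 1. Those of Hsp90aa1 (1.012, 0.955 to 1.07) and Hsph1 (1.06, 0.848 to 1.34) had intervals that hold 1. Fosl1, Egr3 and Dusp2 had too few UMIs to be tested.

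The proximal library gave a split picture. All 38 members were tested: 17 were called lower in distal luminal-like cells and 5 higher, where 25.5% and 21.6% of all 12901 genes were. The median log2 difference was -0.72 over the members and -0.07 over all genes, and without secretory and mitochondrial UMIs the calls were 14 lower and 6 higher, where 18.8% and 31.2% of all genes were. The 5 higher members were Egr2 (54.6 against 14.99 CPM, 3.64-fold), Btg2 (852 against 243, 3.50-fold), Ier2 (1234 against 421, 2.93-fold), Hsph1 (261 against 91.5, 2.86-fold) and Klf2 (99.2 against 42.4, 2.34-fold). Fos (1286 against 906), Jun (2774 against 1862) and Egr1 (940 against 608) had ratios of 1.42, 1.49 and 1.55, under the 2-fold limit. Egr1 passed it without secretory and mitochondrial UMIs (2.05).

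The largest differences were again in members lower in secretory cells. Dusp2 (0.762 against 34.9), Socs3 (5.16 against 88.7), Fosl1 (18.4 against 241), Ier5 (68.6 against 851), Ier3 (70.6 against 694), Gadd45b (67.2 against 565), Nfkbia (140 against 1130), Klf10 (10.6 against 76.7), Nr4a2 (56.4 against 386), Klf4 (223 against 1337), Gadd45a (37.0 against 220) and Myc (35.6 against 202) had ratios of at most 0.176, that of Myc. Dusp2 had the lowest (0.0219), but with 26 UMIs in distal luminal-like cells it passed the minimum through basal-like cells alone, so 16 of the 17 calls had the minimum in both groups. Fosl2 (0.275), Hspb1 (1525 against 4167, 0.366), Egr3 (0.390), Dnaja1 (0.412) and Nr4a1 (0.493) complete the 17, of which Egr3, Dnaja1 and Nr4a1 lost the call without secretory and mitochondrial UMIs. Hspa1a (1082 against 1281, 0.845), Hspa1b (0.690), Dnajb1 (0.671), Hspa8 (0.641) and Hsp90aa1 (0.542) were not called.

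Of the 35 members tested in both libraries, 14 were called lower in secretory cells of both: Fosl2, Ier3, Ier5, Klf4, Klf10, Nr4a1, Nr4a2, Gadd45a, Gadd45b, Myc, Socs3, Nfkbia, Dnaja1 and Hspb1. These 14 are 40% of the 35, where 13.6% of all 10826 genes tested in both libraries were lower in both. They are 50% of the 28 called lower in ventral secretory cells and 82.4% of the 17 in the proximal library, whose other 3 (Fosl1, Egr3 and Dusp2) were not tested in ventral cells. With secretory and mitochondrial UMIs left out 10 were lower in both, against 5.97% of all genes, and Fosl2, Myc, Nr4a1 and Dnaja1 were not. Fosl2 and Myc also rest on few ventral basal-like UMIs, as given above. Ier2 was called lower in ventral but higher in proximal secretory cells. No test of the difference between libraries is possible with 1 library each.

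**Figure D3:**
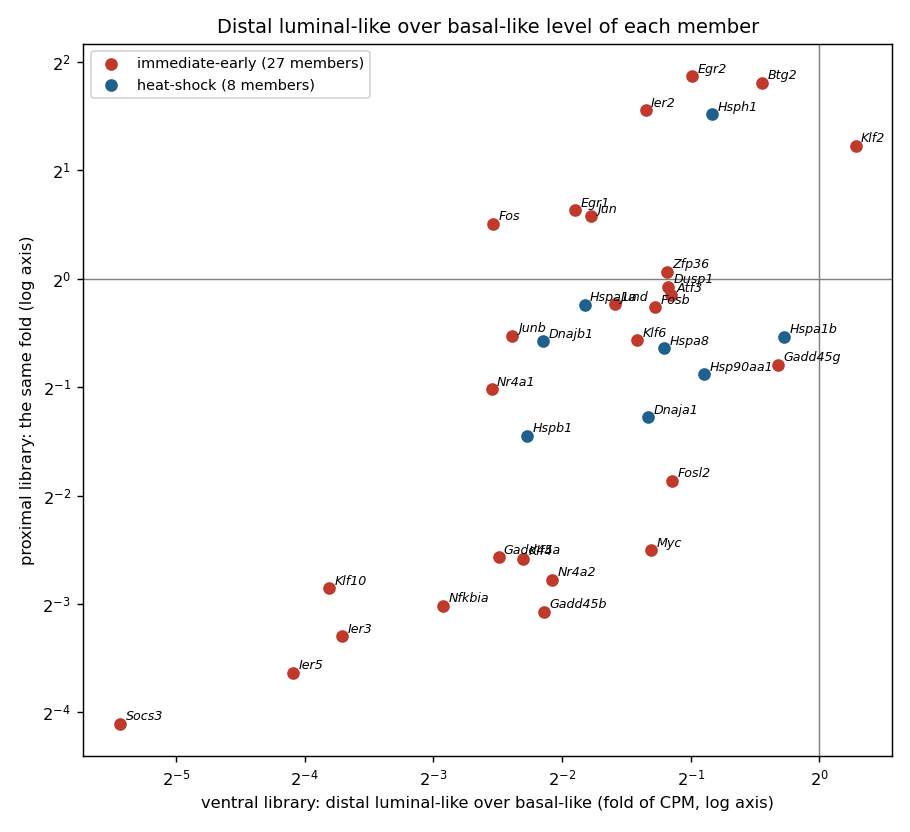
Fold of CPM in distal luminal-like over basal-like cells for the 35 members tested in both libraries, ventral library on the x axis and proximal on the y axis, both log axes, with red points for immediate-early and blue points for heat-shock members. Socs3, Ier5, Ier3, Klf10 and Nfkbia sit at the lower left, and Egr2, Btg2, Ier2, Hsph1, Egr1, Jun, Fos and Zfp36 lie above 1 in the proximal library only. Without secretory and mitochondrial UMIs Btg2 lies above 1 in the ventral library too (1.38). The interval of Hsph1 there (1.06, 0.848 to 1.34) holds 1.

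Related genes outside the members were counted in the same comparisons. A wider immediate-early list of 34 genes had 22 of 30 tested genes lower and 0 higher in ventral distal luminal-like cells, beside 36.3% and 15.2% of all genes, and 27 of 34 lower and 0 higher in proximal ones, beside 25.5% and 21.6%. Of a wider heat-shock list of 32 genes, 16 of 31 were lower and 3 higher in the ventral, 8 of 31 lower and 5 higher in the proximal library. The 3 higher ventral genes, Hspa1l, Hsf2 and Hspa4l, had 0, 0 and 2 UMIs in basal-like cells and passed the minimum through the secretory cells alone, so they are not read as higher. Of the 5 higher proximal genes, Cryab, Hspa1l and Hspb6 had 13, 9 and 18 basal-like UMIs and are not read either. Of 13 regulators such as serum response factor and heat-shock factors, 7 were lower and 1, Hsf2 again, higher in the ventral library, and 6 lower and 1 higher in the proximal one. Without secretory and mitochondrial UMIs 12.3% of all genes were lower and 29.9% higher in ventral cells, and 18.8% and 31.2% in proximal ones. The wider immediate-early list then had 17 lower and 1 higher in ventral, and 26 lower and 1 higher in proximal cells. The heat-shock list had 5 lower and 5 higher, and 4 lower and 10 higher. The regulators had 2 lower and 3 higher, and 3 lower and 1 higher. The higher calls not read above stay in these counts. The feedback phosphatase Dusp6 was at 1.54 in ventral distal luminal-like against 188 CPM in basal-like cells, and at 3.40 against 124 in the proximal library. The chemokine Cxcl1 was at 7.59 against 134 and at 4.37 against 156. Serpinh1, the collagen chaperone, was at 1.91 against 36.8 in the proximal library. Its ventral levels, 0.150 against 267, rest on 7 UMIs in distal luminal-like cells. The C/EBP factor Cebpb was at 11.9 against 264 in the ventral library, and the kinases Pim1 (4.60 against 123) and Sik1 (14.04 against 222) were low in the proximal library. The factor Egr4 (4 against 82 UMIs there) and ventral Serpinh1 passed the minimum through basal-like cells alone and are not read as lower. Hspa1l (1.45) and Hsf2 (4.21) had 0 UMIs in ventral basal-like cells. There 3 UMIs would stand at 4.09 CPM, so neither level is set apart from basal-like cells.

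The Sbp- and Spink1-rich secretory state occurred in both libraries, with 1654 ventral and 162 proximal cells. Immediate-early UMIs were 0.486% and 0.708% of all UMIs, and heat-shock UMIs 0.355% and 0.363%. The same shares without secretory and mitochondrial UMIs were 0.975% and 1.61%, and 0.712% and 0.824%. Of 36 members tested, 3 were called higher in the proximal library, where 8.5% of all 10966 genes were, and 0 lower, where 2.28% were. Ier5 was at 51.5 against 12.5 CPM (4.11-fold) and Hspa1b at 300 against 148 (2.02-fold). The third, Fosl1 (11.9 against 0.789), had 35 ventral UMIs and passed the minimum through the proximal cells alone, so it is not read as higher. Fos (481 against 489, ratio 0.983), Hspa1a (340 against 403, 0.844) and Hsp90aa1 (887 against 895, 0.992) were near equal, Atf3 was at 1008 against 514 (1.96) and Dnajb1 at 126 against 222 (0.566). Median log2 differences were 0.48 over the members and 0.14 over all genes. Without secretory and mitochondrial UMIs 9 members were higher, where 12.8% of all genes were, the added ones being Junb, Atf3, Klf4, Nr4a2, Myc and Socs3. In the wider lists 7 of 30 immediate-early genes were higher, among them Arc (29.0 against 4.06), Maff, Ier5l and Cebpb. Without secretory and mitochondrial UMIs 14 of the 30 were. Cryab (2.57 against 8.16), the 1 lower call, had 26 proximal UMIs and is not read as lower.

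In basal-like cells the members differed between libraries no more often than all genes did. Of 38 members 12 were called higher in the proximal library and 3 lower, where 34.4% and 15.9% of all 10384 genes were. The median log2 difference was 0.27 over the members and 0.32 over all genes. Hspa1b was at 1234 against 179 CPM (6.91-fold) and Dnaja1 at 1662 against 461 (3.61-fold). Nr4a2 (4.36), Ier5 (3.88), Klf4 (3.63), Gadd45b (2.28) and Fosb (2.14) were higher too. The other 5 calls, Fosl1, Myc, Fosl2, Egr3 and Dusp2, had 17, 28, 17, 10 and 2 ventral UMIs and passed the minimum through proximal cells alone, so they are not read as higher. Fos was lower in the proximal library (906 against 2886, 0.314), as were Btg2 (243 against 700, 0.347) and Ier2 (421 against 1117, 0.377). Hspa1a was at 1281 against 1421 (0.901). The ventral basal-like cells were shallower (median 4961 UMIs, against 12025) and held more distal luminal marker RNA (22965 against 2528 CPM) and fibroblast marker RNA (106 against 6.44). The part of these in the differences was not tested. In the wider lists 22 of 34 immediate-early genes were called higher and 1 lower, and 9 of 28 heat-shock genes higher and 2 lower. Of these 31 higher calls 20 passed the minimum through proximal cells alone and are not read, among them Ptgs2, Ccn2, Cxcl2, Hspa4l and Hsf2 with 0, 2, 4, 2 and 0 ventral UMIs.

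The HSP70 pair Hspa1a and Hspa1b split unevenly, by cell class as well as by library. Hspa1a (chr17:34969190-34972156) and Hspa1b (chr17:34956436-34959238), both on the minus strand of GRCm38, had 18770 and 6896 UMIs in ventral distal luminal-like cells, a ratio of Hspa1b to Hspa1a of 0.367 (0.357 to 0.378). In the proximal library the ratio was 0.787 (0.775 to 0.799) in distal luminal-like and 0.883 (0.841 to 0.927) in Sbp- and Spink1-rich cells. It was 0.126 (0.104 to 0.151) in ventral and 0.963 (0.942 to 0.985) in proximal basal-like cells. In ventral proximal luminal-like cells it was 0.457 (0.406 to 0.513), so the libraries overlapped. Proximal fibroblast-like cells stood at 0.458 (0.442 to 0.476) and proximal T or NK-like cells at 0.433 (0.312 to 0.593). The copies share sequence: 1412 of the 2877 stretches of 91 bases, the length of the cDNA read, in the Hspa1a transcript also occur in Hspa1b, but 0 of the 720 after its coding region do. Reads in the shared coding stretch cannot be assigned to 1 copy, so the split between the copies is uncertain, and its difference between libraries cannot be told apart from the reagent version.

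Within the ventral secretory cells several members varied strongly from cell to cell. Thinned to 10000 UMIs per cell (1637 cells, 110 shallower ones left out), the variance of Hspa1a over cells was 7.05 times its mean, that of Hsp90aa1 6.30, Hspb1 5.76, Atf3 5.51, Fos 4.69, Btg2 4.47 and Jun 4.11. The median over 645 other genes of mean 1 or more was 1.28, with an upper quartile of 1.91. These genes were not matched to the members by level. Hspa8, the constitutive HSP70, stood at 2.40.

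Clusters held different amounts. The largest ventral secretory cluster, of 346 cells, had 0.323% immediate-early and 0.271% heat-shock UMIs, with Fos at 309 CPM. A cluster of 239 cells led by the interferon-response genes Cxcl10, Rsad2, Isg15 and Ifit1 had 0.707% and 0.393%, with Atf3 at 990. A cluster of 221 cells had 0.548% and 0.458%, with Hspa1a at 628, and one of 81 cells had 0.724% and 0.493%, with Hspa1a at 658 and Sbp and Spink1 at 33.9% of UMIs. The lowest, of 67 cells, had 0.221% and 0.211%, with a median mitochondrial share of 0.135% and 9885 UMIs. The 93 Msmb- and Defb50-rich cells had 0.576% and 0.323%.

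The 1747 cells were next ordered by the share of their UMIs from the 7 AP-1 genes (Fos, Fosb, Fosl1, Fosl2, Jun, Junb and Jund) and divided into 3 groups of nearly equal size: low (583 cells, up to 0.128%), middle (582 cells, up to 0.223%) and high (582 cells, up to 2.04%). The AP-1 genes defined the groups and are not read as a result. Cells within 10% of a dividing value numbered 378. The other 23 immediate-early members and the 8 heat-shock members had no part in the division, though they come from the same cells and share their depth and library. Other immediate-early members took 0.139%, 0.276% and 0.461% of UMIs in the low, middle and high groups, a high over low ratio of 3.31. Heat-shock members took 0.223%, 0.360% and 0.472%, a ratio of 2.11 (2.09 to 2.14). Median depth was 26540, 28234.5 and 26236.5 UMIs, and secretory genes took 48.8%, 47.8% and 43.6% of UMIs. Without secretory and mitochondrial UMIs the heat-shock ratio was 1.94.

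Of 29 members tested, 19 were called higher in the high group, where 3.27% of all 9076 genes were, and 0 lower, where 0.253% were. The median log2 difference was 1.47 over other immediate-early members, 1.11 over heat-shock members and 0.17 over all genes. Egr2 was at 2.99, 8.39 and 19.4 CPM (6.49-fold, 4.73 to 9.09), but with 45 UMIs in the low group it passed the minimum of 50 through the high group alone, so 18 of the 19 calls had the minimum in both groups. Atf3 went from 171 through 459 to 906 (5.29-fold). Egr1 went from 87.4 through 203 to 346 (3.96-fold) and Btg2 from 227 through 469 to 843 (3.71-fold). Klf2 (4.64-fold), Zfp36 (4.27), Ier2 (3.80), Dusp1 (3.19), Klf6 (3.08), Nr4a1 (2.80), Klf4 (2.77), Nfkbia (2.34) and Ier5 (2.30) were also called. In each of these 13 the middle group stood between the low and the high group.

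The heat-shock co-chaperone Dnajb1 moved most among the chaperones, from 76.7 through 215 to 355 CPM (4.63-fold, 4.35 to 4.94). Hspa1a went from 208 through 423 to 566 (2.72-fold), Hsp90aa1 from 541 through 898 to 1177 (2.17-fold) and Hspb1 from 556 through 843 to 1112 (2.001-fold, just over the limit). Dnaja1 (2.35) and Hsph1 (2.14) were called as well, Hspa1b (1.88) and Hspa8 (607 through 819 to 989, 1.63) were not. Hsp90aa1, Hsph1 and Hspb1 fell under 2-fold without secretory and mitochondrial UMIs (1.96, 1.93 and 1.80). The immediate-early members not called were Socs3 (1.99), Myc (1.74), Ier3 (1.68), Gadd45b (1.67), Gadd45g (1.52), Gadd45a (1.43), Nr4a2 (1.23) and Klf10.

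Klf10 was the only member tested with a ratio under 1. It was at 15.1, 8.27 and 7.72 CPM in the low, middle and high groups, a ratio of 0.510 (0.405 to 0.639). It was called lower without secretory and mitochondrial UMIs (0.460), and its ratio was 0.518 when cells were divided within each cluster. In the other groups of cells it had 50 UMIs or more to test, its ratio was 0.976 in proximal Msmb- and Defb50-rich, 1.42 in fibroblast-like, 1.82 in basal-like, 1.94 in proximal luminal-like and 2.18 in Tgm4- and Pbsn-rich cells.

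**Figure D4:**
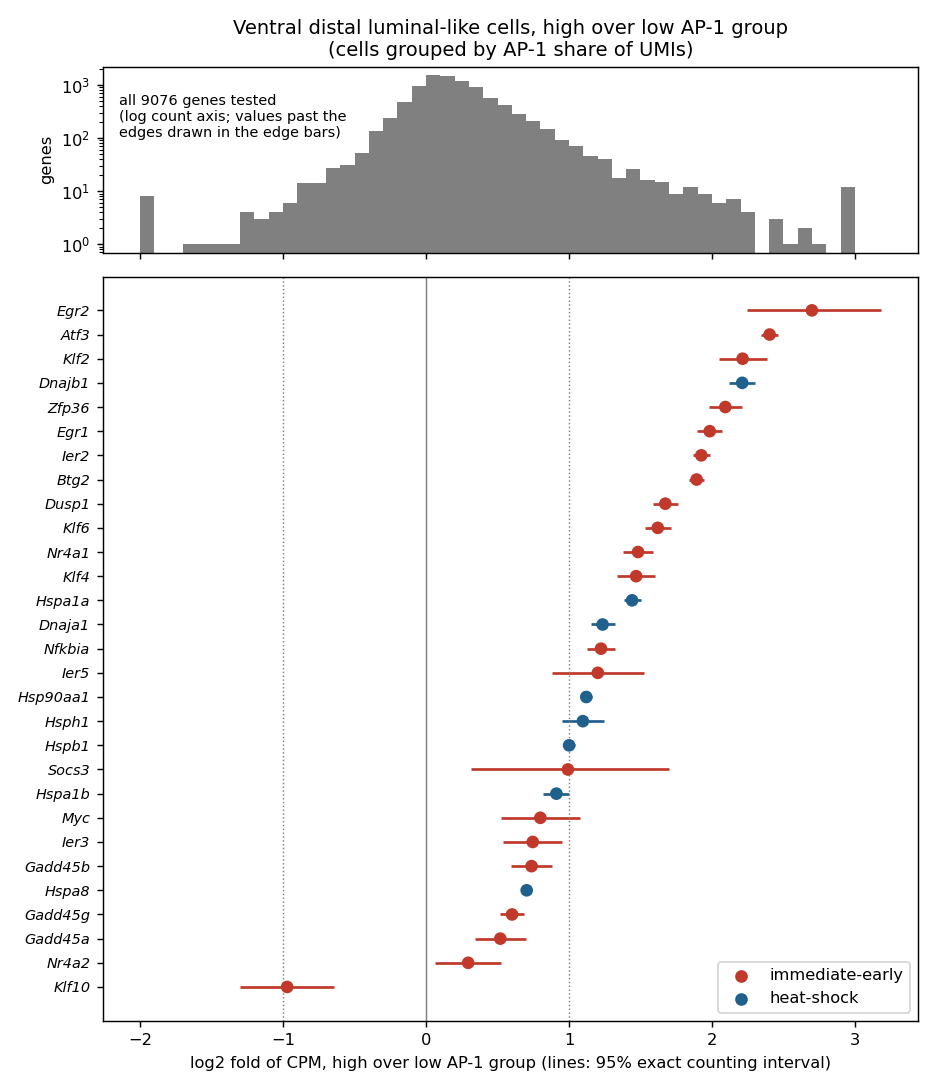
Upper panel, histogram of the log2 fold between the high and the low AP-1 group of ventral distal luminal-like cells over all 9076 genes tested, with a log count axis. Lower panel, the same fold for the 29 members tested that had no part in the grouping, with 95% exact counting intervals as lines and dotted lines at 2-fold. Most members lie right of 0, from Nr4a2 (1.23-fold) to Atf3 (5.29-fold) and to Egr2 (6.49-fold), which passed the minimum of 50 UMIs through the high group alone, and Klf10 lies left of 0 (0.510).

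Clusters entered the AP-1 groups unequally: 59.0% of the interferon-led cluster and 58.0% of the cluster of 81 cells fell into the high group, and 77.6% of the 67 cells with little mitochondrial RNA into the low group. Dividing the cells within each cluster, an alternative chosen after seeing the data, gave ratios of 2.64 for other immediate-early and 1.86 for heat-shock members, with Atf3 at 3.47, Dnajb1 at 3.57 and Hspa1a at 2.25. Of the 19 members called, Hspb1 (1.86), Hsp90aa1 (1.86), Hsph1 (1.80), Dnaja1 (1.97) and Nfkbia (1.94) then lay under 2-fold, which left Dnajb1 and Hspa1a as the only chaperones past it. Cell by cell over the 1747 cells, Spearman's rho was 0.87 between the shares of AP-1 and other immediate-early members and 0.51 between those of all immediate-early and heat-shock members (0.48 without secretory and mitochondrial UMIs). It was 0.52 with Dnajb1, 0.26 with the Hspa1a and Hspa1b pair, 0.02 with the total of UMIs and -0.31 with the Sbp and Spink1 share (-0.10 without secretory and mitochondrial UMIs). These are descriptions of cells that share 1 library.

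The wider lists were counted against the same 3.27% of all genes called higher. Of 28 immediate-early genes tested 13 were called higher, among them Maff (2.72 to 24.9 CPM, 9.13-fold), a small MAF factor, the chemokines Cxcl2 (4.58-fold) and Cxcl1 (3.93-fold), the ERK phosphatase Dusp5 (4.36-fold) and Csrnp1 (4.31-fold). Of 11 regulators tested 1 was called: Srf, the serum response factor itself (1.66 to 7.202, 4.34-fold). Maff, Cxcl2, Cxcl1, Arc and Srf had 41, 19, 48, 29 and 25 UMIs in the low group. They passed the minimum through the high group alone and are not read as higher. Of the 17 calls over all these lists, 12 had the minimum in both groups. Of 29 wider heat-shock genes 3 were called, among them Dnajb4 (2.30-fold) and the HSP70 co-chaperone Bag3 (2.19-fold). Hsf1 stood at 1.38 and Hsf2 at 0.992.

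The same division was made in 7 other groups of cells. Heat-shock ratios were 2.32 in proximal Sbp- and Spink1-rich, 1.74 in Msmb- and Defb50-rich, 1.96 in Tgm4- and Pbsn-rich, 1.64 in proximal luminal-like, 1.25 in proximal basal-like, 2.21 in fibroblast-like and 2.23 in ventral basal-like cells. Ratios of the other immediate-early members ran from 2.29 in proximal luminal-like to 4.44 in ventral basal-like cells. In proximal basal-like cells the heat-shock share went from 1.33% to 1.66%, with Hspb1 at 4047 and 4351 CPM (ratio 1.08) and Hspa1a at 870 and 1873 (2.15). In fibroblast-like cells it went from 0.589% to 1.30%, with Hspa1a at 734 and 3073 (4.19). Depth and secretory RNA moved with the division in some groups: in Tgm4- and Pbsn-rich cells the median was 16396.5 UMIs in the low and 34316 in the high group, and in proximal Sbp- and Spink1-rich cells secretory genes took 59.3% and 41.9% of UMIs. The median log2 difference of all genes was 0.60 in these Sbp- and Spink1-rich cells, where 23.9% of all genes were called higher, and -0.14 in fibroblast-like cells. The part of these in the ratios was not tested, and the ratios are not ranked between groups.

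**Figure D5:**
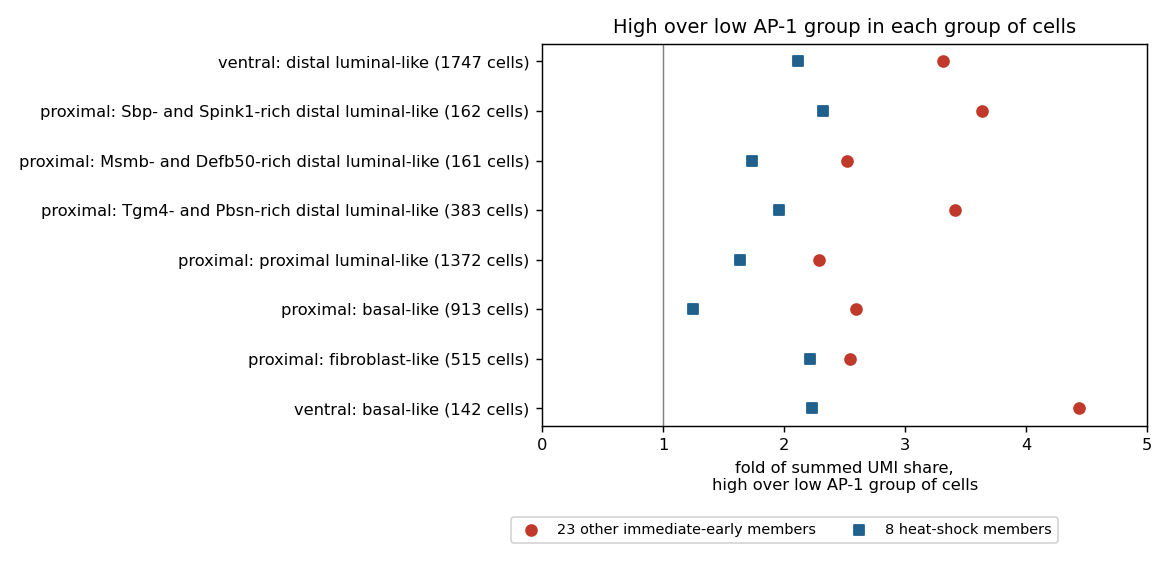
Ratio of summed UMI share between the high and the low AP-1 group within each of 8 groups of cells, for the 23 other immediate-early members (red circles) and the 8 heat-shock members (blue squares), with a line at 1. Heat-shock ratios run from 1.25 in proximal basal-like to 2.32 in proximal Sbp- and Spink1-rich cells, where the median of all genes also shifted by 0.60 on the log2 scale, and lie below the immediate-early ratio in every group.

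Barcodes left out by the filters held response RNA too. The 96 ventral barcodes with over 10% mitochondrial UMIs had 0.630% immediate-early and 0.455% heat-shock UMIs, against 0.529% and 0.373% in those passing the filter. The 402 such proximal barcodes had 1.81% and 1.10%, against 1.69% and 1.22%. Barcodes with under 500 genes had 0.205% immediate-early UMIs in the ventral library (130 barcodes) and 0.763% in the proximal library (233 barcodes). Their median mitochondrial share was 51.3% and 51.2%, and of non-mitochondrial UMIs the immediate-early share was 0.352% and 1.39%, against 0.542% and 1.77% in those passing. In the barcodes over 10% it was 0.782% and 2.19%.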

How the data were processed

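The values are whole UMI counts, one for each gene in each barcode, as deposited by the authors after Cell Ranger 7.0.0 on mm10, per the submitters' processing notes. The members and lists were chosen with earlier results of these data known. Barcodes needed at least 500 genes and at most 10% mitochondrial UMIs, which left out 226 ventral and 635 proximal barcodes, and a further 7 and 4 were called doublets. Each library was clustered apart with scanpy 1.11.5 (2000 variable genes without members and wider lists, 30 components, 15 neighbours, Leiden resolution 1). A cluster was named from at least 3 markers, by a rule on marker scores and leading genes set after the clusters had been looked at. Counts were summed over the cells of a group and set over its total. With 1 library per region no test over samples was possible, so a gene was called by size (over 2-fold, with at least 50 UMIs in either group), and exact 95% intervals cover counting error only. Of the 38 members, 35 to 38 passed that minimum in the comparisons of classes. Values are given for members with at least 50 UMIs in a group described, and for up to 6 genes of the wider lists per comparison with the largest folds, to which the AP-1 comparison adds further called genes and the heat-shock factors, chosen after their values were seen. Some genes of the wider lists are counted but not reported by name here. On counts simulated from the ventral library profile, 100% of 200 changed genes were called among 9534 tested. Those genes were given changes well past the 2-fold limit and enough UMIs, without variation between cells. The outcome was thus set in advance, and it checks the code and not the calls in the real cells. A list adjusted for secretory genes leaves out Sbp, Sbpl, Spink1, Defb50, Msmb, Pbsn, Tgm4, Svs2, Svs4, Svs5, Pate4 and Apof. Promoters and gene positions come from RefSeq and GENCODE M21.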

Additional observations from a re-analysis of the deposited data

Results flagged for a closer look

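For 8 members the distal luminal-like over basal-like ratio of CPM lay below 1 in ventral but above 1 in proximal cells. The difference between libraries was not tested, since each region has 1 library, and region and reagent version cannot be told apart. The ventral and proximal ratios were 0.173 and 1.42 for Fos, 0.293 and 1.49 for Jun, 0.269 and 1.55 for Egr1, and 0.503 and 3.64 for Egr2. They were 0.392 and 2.93 for Ier2, 0.440 and 1.04 for Zfp36, 0.734 and 3.50 for Btg2, and 0.561 and 2.86 for Hsph1. Without secretory and mitochondrial UMIs the ventral ratio of Btg2 became 1.38, above 1 like the proximal one. That of Hsph1 became 1.06 (0.848 to 1.34), an interval that holds 1, so its side is not settled. The other 6 lay on opposite sides. Egr2 was then at 0.948 (0.569 to 1.71) in ventral cells, an interval that holds 1 and rests on 15 basal-like UMIs, so its side is not settled either. The proximal class mixes 3 secretory states. In its Sbp- and Spink1-rich cells, the state that fills the ventral lobes, 5 of the 8 members lay below proximal basal-like cells: Fos (481 against 906 CPM), Jun (976 against 1862), Egr1 (296 against 608), Zfp36 (182 against 249) and Hsph1 (48.9 against 91.5). Ier2 (559 against 421) and Btg2 (614 against 243) lay above, and Egr2 was nearly equal (13.96 against 14.99). Secretory genes took 52.4% of UMIs in this state, and without secretory and mitochondrial UMIs all 8 lay above basal-like cells, with ratios of 1.15 for Fos, 1.14 for Jun, 1.06 for Egr1, 1.16 for Hsph1, 1.59 for Zfp36, 2.03 for Egr2, 2.89 for Ier2 and 5.49 for Btg2. In basal-like cells, Fos was at 2886 CPM in ventral against 906 in proximal cells.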

How the results depend on the processing

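The distal luminal-like over basal-like ratio of immediate-early share in the proximal library was the 1 result that reversed: 0.791 became 1.05 without secretory and mitochondrial UMIs. That denominator also moved the ventral immediate-early ratio from 0.289 to 0.544, the heat-shock ratios from 0.331 to 0.624 (ventral) and from 0.559 to 0.739 (proximal), and the heat-shock ratio between AP-1 groups from 2.11 to 1.94. The ventral immediate-early ratio was otherwise 0.331 from median shares per cell, 0.283 at Leiden resolution 0.5, 0.255 with members among the variable genes and 0.277 after subtracting 5% of the library's mean profile. The ventral heat-shock ratio was 0.379 from medians, 0.340 with cells thinned to 1000 UMIs and 0.319 after that subtraction. The proximal immediate-early ratio was 0.795 with at least 200 genes and at most 20% mitochondrial UMIs, 0.782 after removing the highest doublet scores, 0.771 from medians, 0.772 thinned, 0.786 at resolution 2 or with members among the variable genes, and 0.780 after the subtraction. The proximal heat-shock ratio was 0.545 after doublet removal, 0.612 thinned and 0.540 after the subtraction. The heat-shock ratio between AP-1 groups was 2.02 and 2.08 under the looser and stricter cell filters, 2.08 after doublet removal, 2.18 from medians, 1.55 thinned, 2.08 at resolution 0.5, 2.33 with members among the variable genes, 2.21 after the subtraction and 1.66 with 2 groups in place of 3. Added after seeing the data, it was 1.86 divided within clusters and 2.06 without the cluster of under 1% mitochondrial UMIs.

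Counts moved by over 1.5 times in 10 of 40 settings. Without secretory and mitochondrial UMIs, ventral distal luminal-like calls went from 28 to 14 lower and from 0 to 1 higher, and calls in Sbp- and Spink1-rich cells from 3 to 9 higher. In the latter, a limit of 1.5-fold gave 16 higher and 1 lower, and no minimum of UMIs gave 5 higher. In basal-like cells the 1.5-fold limit gave 5 lower in place of 3. Between AP-1 groups, 1 member in place of 0 was lower in the adjusted totals, at 1.5-fold and with no minimum. No paired analysis was possible because each group has 1 library, and for the same reason no replicate could be left out. Fosl1, Egr3 and Dusp2 were under the minimum of 50 UMIs in the ventral comparison with basal-like cells.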
